A study of Mus musculus with 22 samples.

Results

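The cytosolic ribosomal protein genes encode the protein parts of the ribosomes that work in the cytoplasm. Members were chosen by symbol: Rpl or Rps followed by a number, alone or with a final a, x, l or y, together with Rplp0, Rplp1, Rplp2 and Rpsa. The rule found 84 of the 55376 genes counted, of which 52 carry names of the large subunit and 32 names of the small subunit. In the GENCODE M21 basic annotation, 81 of them were protein-coding, Rpl6l and Rpl32l were processed pseudogenes, and Rps4l was a transcribed processed pseudogene. The rule leaves out 6 subunit genes of other names, which are described at the end beside the members.

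A ribosome is built in the nucleolus from ribosomal RNA and 1 copy of nearly every ribosomal protein, so the genes of this family are usually expressed together. Their mRNAs begin with a short tract of pyrimidines, the TOP motif, through which mTOR signalling controls their translation, and their transcription is raised by Myc in growing and dividing cells. In the developing nervous system, dividing cells are known for high ribosome production, and a loss of single ribosomal proteins can stabilise p53 and disturb red cell, skeletal or neural development. Mammalian genomes hold many processed pseudogenes of these genes, which are near-identical copies without introns.

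The libraries are poly(A) RNA of sorted cells from E12.5 mouse embryos, counted per gene. Motor neurons were sorted by the ISL1::GFP reporter and endothelial cells by Kdr::Cherry, and the embryos of a genotype were pooled before dissociation with papain, so a library is a pool and not an animal. In the knockout series, wild-type (WT) and Plxnd1 knockout (Plxnd1-KO) cells came from spinal cord with its meninges: 3 libraries each of WT motor neurons, Plxnd1-KO motor neurons and Plxnd1-KO endothelial cells, and 2 usable ones of WT endothelial cells. The regional series, WT throughout, holds 5 libraries of endothelial cells from the cord parenchyma and 5 from the meninges: batches 1 to 3 of the cord were of its ventral part and batches 4 and 5 of the whole cord. The labels do not say that the pools of a group came from separate litters, and the p-values take in no spread beyond that among the libraries, which may be technical.

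Before any result, 3 features of the libraries need stating. The deposited counts of WT endothelial batch 2 are identical in all 55376 genes to those of Plxnd1-KO endothelial batch 1, and that library was left out, which leaves 21 of 22. The first Plxnd1-KO motor neuron library held 466 CPM of Alb (CPM are counts scaled to a common library size, within each series by the TMM method), the liver gene of serum albumin, against at most 0.491 CPM in the other motor neuron libraries. Gm42418, a gene row that overlaps ribosomal RNA sequence, ranged from 247 to 18369 CPM in the regional series and was at 1343, 509.8 and 247 CPM in ventral cord, 8939 and 5389 CPM in whole cord, 1681, 18369 and 11589 CPM in meninges of batches 1 to 3 and 2355 and 6784 CPM in those of batches 4 and 5. The targeted gene matched the labels in direction: Plxnd1 was at 213 and 175 CPM in WT and 28.9, 15.4 and 18.7 CPM in Plxnd1-KO endothelial cells, and at 12.1, 5.14 and 7.79 against 1.78, 0.645 and 0.771 CPM in motor neurons. A library of the knockout series held 20680902 to 27035395 counts, and a regional one 15685784 to 21493255.

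Reads that align to several places in the genome were not counted, and the members differ in how much of their sequence is their own. Over the 81 members with a coding transcript, a median of 61.5% of all 50-base windows of the transcripts were found in no transcript of another gene, and 72.0% of 100-base windows. For 24 members the 50-base share was under 40%, and for 17 it was 80% or more. The first coding bases of 3 members with little sequence of their own are shown in lower case, read from the GENCODE M21 transcripts with gene positions in GRCm38 (mm10).
Rps6 (chr4:86854660-86857412, minus strand): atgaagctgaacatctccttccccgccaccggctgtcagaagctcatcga
Rpl23a (chr11:78180935-78183584, minus strand): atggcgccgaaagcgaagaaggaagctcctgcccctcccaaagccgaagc
Rpl35 (chr2:39001580-39005624, minus strand): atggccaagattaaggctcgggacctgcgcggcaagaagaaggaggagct
These 50 bases of Rps6 and of Rpl23a each occur unchanged in 7 annotated pseudogenes, and those of Rpl35 in 3 other genes, 2 of them pseudogenes. Over the whole transcript, Rps6 shared 50-base windows with 14 genes and Rpl23a with 29. Rows named as pseudogene copies of members (298 rows, most for Rpl31 and Rps12 with 24 each, then Rpl21 with 15 and Rpl7a, Rps19 and Rpl23a with 14) held 0.455% to 1.12% of the summed counts of members and copies in a library.

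The knockout series was counted as single reads without strand and the regional series as read pairs on the reverse strand, and no test was made between them. Whether the counting accounts for differences in level between the series was not tested. In TPM (counts divided by exonic length and scaled to the same total in each library), members with a high median over all 21 libraries included Rpl4 (1863 TPM) and Rpl8 (1634 TPM), both with at least 83.5% of 50-base windows of their own. The lowest were Rpl10l and Rpl6l, both at 0 TPM, and Rpl24 at 0.283 TPM. Rpl10l was counted in 3 of 21 libraries and reached 0.0946 CPM. A count of 0 allows up to 3 counts, which is 0.111 to 0.191 CPM on unscaled library totals. Rpl24, a core protein of the large subunit, reached at most 0.533 CPM in any library, and 18.3% of its 50-base windows were its own.

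The ratio of levels between the 2 series was set against the share of unique sequence. Rps6, the small subunit protein phosphorylated by S6 kinase, had a median of 6.69 TPM over knockout-series endothelial libraries and 900 TPM over regional ones, a ratio of 135. Rpl23a stood at 4.57 and 1031 TPM, and Rpl35 at 55.1 and 400.1 TPM. Rps29 stood at 14.2 and 2644 TPM although 64.2% of its windows were its own. Rpl4, with 83.5% of windows of its own, stood at 1884 and 2027 TPM, a ratio of 1.08. For the 24 members under 40% unique the median ratio was 15.2, for the 40 between 40% and 80% it was 4.91, and for the 16 at 80% or more with a ratio it was 1.93. Across the 80 members with a ratio, Spearman's rho between the share of unique windows and the ratio was -0.59, a description over genes that share the same libraries. The ratio was above 10 in 27 members and below 1 in 8. Within a series the order of levels was nearly the same in every cell type: rho of mean TPM over the 84 members was 0.983 between WT endothelial cells and WT motor neurons and 0.987 between cord and meninges, but 0.526 between WT endothelial cells and cord endothelial cells.

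The share of all counts that fell on members was the first measure compared between groups. In the knockout series it was 0.830 and 0.710% in the 2 WT endothelial libraries and 0.796, 0.836 and 0.669% in the 3 Plxnd1-KO ones, against 0.443, 0.425 and 0.432% in WT and 0.414, 0.413 and 0.412% in Plxnd1-KO motor neurons. Every endothelial library lay above every motor neuron library, and within a cell type the genotypes overlapped in endothelial cells and did not in motor neurons. In the regional series it was 1.78, 2.08 and 1.84% in ventral cord, 2.80 and 2.72% in whole cord and 4.98, 4.11, 3.85, 3.35 and 3.28% in the 5 meningeal libraries. All meningeal libraries lay above all cord libraries, and both whole cord libraries lay above the ventral ones. The 95% Wilson intervals reach at most 0.00977 percentage points to either side of a share and cover counting error only. Mitochondrial genes took 2.09% to 3.19% of the counts in meningeal batches 1 to 3 and 1.25% to 2.23% in the other regional libraries. In bulk libraries, fewer cells of a type and less RNA per cell cannot be told apart.

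**Figure D1:**
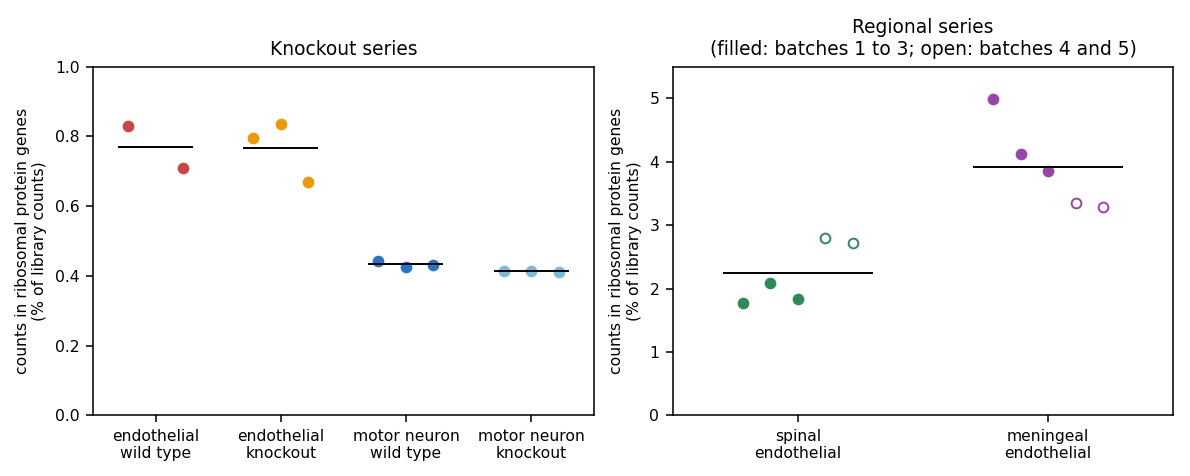
Percentage of each library's counts on the 84 members, by group, 1 point per library. Motor neurons lie between 0.412% and 0.443%, endothelial cells of the knockout series between 0.669% and 0.836%, cord libraries between 1.78% and 2.80% and meningeal libraries between 3.28% and 4.98%, with the series counted differently.

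Endothelial cells had more ribosomal protein mRNA than motor neurons in both genotypes. In WT, 51 of the 78 members tested were higher in endothelial cells, against 33.8% of all genes tested, and 2 were lower, against 31% (edgeR quasi-likelihood test, Benjamini-Hochberg adjusted p under 0.05 over 19266 genes). In Plxnd1-KO, 57 were higher, against 35.3% of all genes, and 2 were lower, against 33.5%. The median log2 fold change, endothelial cells minus motor neurons, was 0.68 in WT and 0.74 in Plxnd1-KO, where the median over all genes tested was 0.02 in each. Small subunit members had medians of 0.78 and 0.84 and large subunit members 0.57 and 0.68. The groups did not overlap, with endothelial cells higher, in 59 WT members (40.6% of all genes) and in 54 Plxnd1-KO members (37.3% of all genes). With motor neurons higher they did not overlap in 2 members of each genotype, beside 38.4% and 35.1% of all genes. The 2 comparisons rest on separate libraries but 1 fitted spread, and 50 members were called higher in both. By batch, the median difference was 0.81 and 0.52 in WT and 0.69, 0.82 and 0.60 in Plxnd1-KO.

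Of the 4 genes of the stalk, which recruits elongation factors to the large subunit, 3 were called higher in each genotype. Rplp1 was at 201 and 164 CPM in WT endothelial cells and 71.7, 74.3 and 71.1 CPM in WT motor neurons, and at 200.4, 175 and 187 against 70.3, 70.7 and 64.3 CPM in Plxnd1-KO. All endothelial libraries lay above all motor neuron libraries, and the log2 fold change with its SE was 1.34 ± 0.10 in WT (adjusted p = 1.35e-06) and 1.46 ± 0.09 in Plxnd1-KO (adjusted p = 3.43e-07). Rplp0, the anchor of the stalk, rose on the log2 scale by 1.02 ± 0.12 in WT and 1.05 ± 0.11 in Plxnd1-KO, and Rplp2 by 0.78 ± 0.11 and 1.02 ± 0.10. Rpl12, which sits at the stalk base, was at 15.1 and 9.25 against 8.64, 7.49 and 6.99 CPM in WT and at 14.3, 13.1 and 6.38 against 8.79, 7.42 and 6.67 CPM in Plxnd1-KO, and was not called (adjusted p = 0.0917 and 0.107). With batch as a block Rpl12 was called in both (adjusted p = 0.0245 and 0.0389). It was also called in both without Plxnd1-KO endothelial batch 3 (0.0239 and 0.00702) and in WT without WT endothelial batch 3 (0.0459).

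Among small subunit members, Rps27l, a paralog of the zinc finger protein Rps27 known as a p53 target, had 28.2 and 21.3 CPM in WT endothelial cells and 11.3, 8.89 and 8.13 CPM in WT motor neurons. In Plxnd1-KO it had 22.01, 25.3 and 20.5 and 9.45, 7.06 and 8.82 CPM. No libraries overlapped, and the log2 fold changes were 1.39 ± 0.19 (adjusted p = 9.46e-05) and 1.42 ± 0.18 (adjusted p = 3.89e-05). Rps20, whose mouse mutation darkens the skin, rose by 1.12 ± 0.14 and 1.22 ± 0.13, and the X-linked Rps4x by 1.16 ± 0.15 and 1.14 ± 0.14. Rps27 rose by 1.12 ± 0.29 in WT on levels of 1.55 to 4.97 CPM, and this call was lost without WT endothelial batch 1 (adjusted p = 0.0798). Rps25, used by some viral internal entry sites, rose by 1.31 ± 0.16 in Plxnd1-KO, and Rps16 by 1.28 ± 0.15.

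The 2 members called lower in each genotype were of the large subunit. Not called were 25 members in WT and 19 in Plxnd1-KO. Of the 32 small subunit members, 24 were called higher in WT and 26 in Plxnd1-KO. Rpl15, a core protein of the large subunit, was at 57.0 and 56.7 CPM in WT endothelial cells and 107, 125 and 105 CPM in WT motor neurons, and at 52.5, 69.2 and 56.9 against 99.6, 118 and 102 CPM in Plxnd1-KO. Motor neurons were higher in every library, and the log2 fold change was -0.98 ± 0.13 (adjusted p = 8.31e-05) in WT and -0.84 ± 0.12 (adjusted p = 8.06e-05) in Plxnd1-KO. Rpl21 fell as well, from 12.9, 14.6 and 12.9 CPM in WT motor neurons to 10.8 and 9.83 CPM in WT endothelial cells, with log2 fold changes of -0.38 ± 0.15 in WT and -0.69 ± 0.13 in Plxnd1-KO. Its WT call was close to the threshold (adjusted p = 0.0442). It was lost with batch as a block (0.0507), with another library scaling, RLE (0.0536), with no filter (0.185) and with its named copies added (0.0911). It was also lost without WT endothelial batch 1 or 3, Plxnd1-KO endothelial batch 1 or Plxnd1-KO motor neuron batch 1 or 2. The same held on leaving out any 1 of the WT motor neuron libraries (adjusted p from 0.0539 to 0.200 over these). Rpl5 and Rpl11, which bind Mdm2 together with 5S ribosomal RNA, had log2 fold changes of -0.05 and 0.03 in WT and were not called in either genotype, at levels of 1.73 to 5.15 CPM. Rpl23, the other Mdm2 binder listed, rose by 0.85 ± 0.12 and 0.95 ± 0.11.

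Other transcripts moved with this comparison. All 15 genes of the proliferation list rose in endothelial cells in both genotypes, for example Mcm2 by 2.03 ± 0.11 and Mcm5 by 2.46 ± 0.14 in WT, both subunits of the replication helicase. The summed level of that list was 1523 to 2079 CPM in endothelial and 137 to 242 CPM in motor neuron libraries. The 12 mesenchyme and cartilage markers summed to 14867 to 17730 CPM in endothelial and 123 to 292 CPM in motor neuron libraries, the 9 erythroid markers to 9055 to 21224 against 47.1 to 128 CPM, and the 9 macrophage markers to 739.8 to 1032 against 4.68 to 21.8 CPM. The 14 endothelial markers summed to only 646 to 1465 CPM in the endothelial libraries, with Kdr itself at 101 to 265 CPM, and all 14 rose against motor neurons in both genotypes. The 8 progenitor markers summed to 2508 to 3112 against 490.1 to 625 CPM, and the 7 pericyte markers to 963 to 1571 against 10.2 to 22.2 CPM. The 12 motor neuron markers summed to 4437 to 6859 CPM in motor neuron and 384 to 789 CPM in endothelial libraries. Their part in the difference in ribosomal protein mRNA was not tested.

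**Figure D2:**
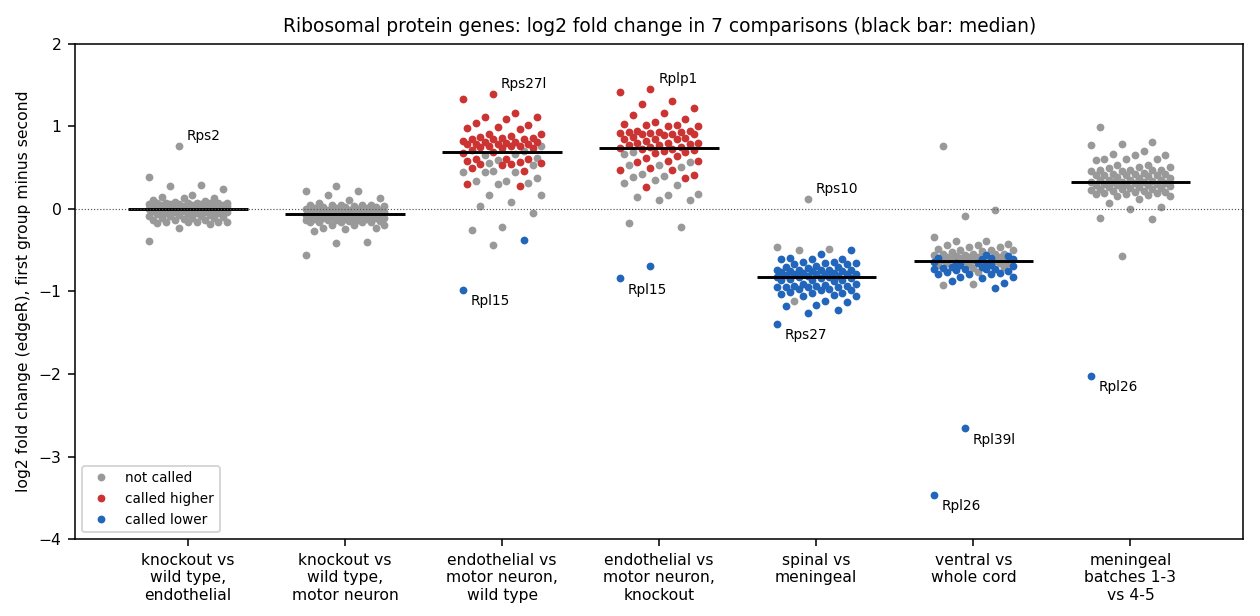
Log2 fold change of every tested member in 7 comparisons, first group minus second, with called members in red or blue, the others in grey and the median as a bar. The medians were 0.00 and -0.07 for the knockout in endothelial cells and motor neurons, 0.68 and 0.74 for endothelial cells against motor neurons, and -0.82 for cord against meninges.

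Loss of Plxnd1, a semaphorin receptor of endothelial cells, was compared within each cell type. In endothelial cells 0 of 78 members were called in either direction, against 0% of all 18209 genes (edgeR quasi-likelihood), with 1 member and 431 genes at an unadjusted p under 0.05, and DESeq2 called 0 members. Plxnd1 itself, at 213 and 175 CPM in WT against 28.9, 15.4 and 18.7 CPM in Plxnd1-KO, was among the genes that edgeR did not call. The test missed a known difference of that size, so 0 calls do not show that the members were unchanged. The median log2 fold change of the members, Plxnd1-KO minus WT, was 0.00, and leaving out 1 library moved it between -0.14 and 0.13. Within the 2 batches that hold both genotypes, the median difference was -0.07 and -0.08, with 55 and 50 of 78 members below 0, and the share of counts on members was lower in Plxnd1-KO in both, at 0.796% against 0.830% and 0.669% against 0.710%. Rps2, a small subunit protein near the mRNA entry channel, had 80.7, 78.9 and 69.8 CPM in Plxnd1-KO and 53.8 and 36.4 CPM in WT. Its groups did not overlap and its log2 fold change was 0.76 ± 0.18, with an adjusted p of 0.999. With batch as a block, which leaves 1 residual degree of freedom, the adjusted p was 0.000147, in a fit that called 139 genes higher and 41 lower. Rps2 shared 50-base windows with 71 other genes, its named copies held 17.6% of their joint counts, and with those copies added its log2 fold change was 0.45. The other member with no overlap was Rps16, at 39.6, 43.8 and 30.7 against 30.0 and 28.6 CPM (0.38 ± 0.17, adjusted p = 0.999). These 2 of 78 members stand beside 5.87% of all genes with no overlap and Plxnd1-KO higher, and 0 members beside 7.98% with Plxnd1-KO lower.

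In motor neurons 0 of 78 members were called (edgeR), beside 0% of all genes higher and 0.012% lower. An unadjusted p under 0.05 was found in 2 members and in 190 of 16695 genes, and DESeq2 called 0 members. The median was -0.07, with 58 of 78 members below 0, and 7 members did not overlap with Plxnd1-KO lower, beside 2.5% of all genes, while 0 did so with Plxnd1-KO higher, beside 2.34%. Among the 7 were Rplp0, Rplp1 and Rplp2 of the stalk with Rps20, Rpl30 and Rpl39. Rpl30, at 9.24, 8.59 and 12.1 CPM in Plxnd1-KO and 12.7, 12.2 and 15.1 CPM in WT, had the largest difference of the 7 (-0.42 ± 0.17, adjusted p = 0.9997). Rplp0 had 135, 139.7 and 149 against 173, 156 and 156 CPM (-0.20 ± 0.07). Rpl23a had the lowest fold change of the 78, -0.56 ± 0.39, on at most 1.17 CPM with overlapping groups. The interaction test, which asks whether the knockout effect differs between the cell types, called 0 of 78 members (edgeR), beside 0% of all genes, with 0 members and 352 genes at an unadjusted p under 0.05, and DESeq2 called 0 members.

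Endothelial cells of the cord had less ribosomal protein mRNA than those of the meninges. Of 78 members tested, 73 were lower in cord, against 23% of all 16213 genes, and 0 were higher, against 24.8% (edgeR quasi-likelihood, adjusted p under 0.05). DESeq2 called 73 lower and 0 higher. An unadjusted p under 0.05 was found in 74 members and in 8806 of the 16213 genes. The median log2 fold change, cord minus meninges, was -0.82, a 1.76-fold higher level in meninges, where the median over all genes was 0.01. The groups did not overlap, with cord lower, in 60 members, against 17.3% of all genes. The median was -0.79 in the large and -0.85 in the small subunit. By sequence uniqueness, medians were -0.82, -0.79 and -0.88 for members under 40%, from 40% to 80%, and from 80% unique.

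Rps27 had the lowest fold change. It stood at 187, 239 and 175 CPM in ventral cord, 383 and 351 CPM in whole cord, 814, 1076 and 651 CPM in meninges of batches 1 to 3 and 475 and 488 CPM in those of batches 4 and 5. Every cord library lay below every meningeal one, most of all in batches 1 to 3, and the log2 fold change with its SE was -1.39 ± 0.28 (adjusted p = 0.00133). Rpl35 followed at -1.26 ± 0.31, then Rpl36 at -1.23 ± 0.23, the very short protein Rpl41 at -1.18 ± 0.25, and Rps14 at -1.17 ± 0.25.

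The stalk members all fell. Rplp1 stood at 381, 499 and 379 CPM in ventral and 739.5 and 646 CPM in whole cord, against 1368, 1068, 1105, 952 and 980.0 CPM in the 5 meningeal libraries. No cord library reached the lowest meningeal one, and the log2 fold change was -1.05 ± 0.20 (adjusted p = 0.000946). The log2 fold change was -0.67 ± 0.19 in Rplp0, -0.72 ± 0.18 in Rplp2 and -0.83 ± 0.21 in Rpl12. The Mdm2 binders fell too, with -0.94 ± 0.20 in Rpl11, -0.60 ± 0.18 in Rpl5 and -0.54 ± 0.19 in Rpl23. The call of Rpl23 was lost without ventral cord batch 1 (adjusted p = 0.0575) or 3 (0.0538).

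Members with known mouse or human mutations were counted as groups. Of the 19 members mutated in Diamond-Blackfan anaemia, a failure of red cell production, 16 fell in cord, 7 were lower in ventral than in whole cord, and in endothelial cells against motor neurons 8 rose and 1 fell in WT, 9 and 1 in Plxnd1-KO. Beside these stand 23% of all genes lower in cord, 5.56% lower in ventral cord, 33.8% higher and 31% lower in WT and 35.3% and 33.5% in Plxnd1-KO, so that the counts of rises lie near the background. Rps19, the first of these genes to be identified, stood at 127, 152, 117, 185 and 173 CPM in the 5 cord libraries and 394, 222, 276, 234 and 232 CPM in the 5 meningeal ones. The groups did not overlap (-0.85 ± 0.18, adjusted p = 0.00194). Of 6 tested members with a known mouse mutant (Rpl38, Rps19, Rps20, Rps7, Rps6 and Rpl27a), 5 fell in cord, 4 were lower in ventral than in whole cord, and 6 rose in endothelial cells against motor neurons in WT and 5 in Plxnd1-KO, beside the same shares of all genes. Rpl38, mutated in the Tail-short mouse and required for the body axis, was the exception in cord, at 67.6, 74.7, 55.2, 119 and 116 against 181, 92.0, 125, 107 and 101 CPM. The highest cord libraries of Rpl38 overlapped the meningeal range (-0.49 ± 0.24, adjusted p = 0.112), and it was called without whole cord batch 4 (0.0408) or 5 (0.0491).

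The other 4 members not called were Rpl35a (-1.11 ± 0.44, adjusted p = 0.0522), Rpl36al (-0.49 ± 0.26), Rpl26 (-0.47 ± 0.78) and Rps10 (0.12 ± 0.36). With batch as a block, Rpl26 was called (adjusted p = 0.0170) and Rpl3, at -0.50 ± 0.18 in the fit without it, was lost (0.0647). The call of Rpl3 was also lost without meningeal batch 1, 4 or 5 or ventral cord batch 1 or 3 (adjusted p from 0.0521 to 0.0674). Rps10 was at most 1.39 CPM in any cord or meningeal library while its 4 named copies held 70.8% of their joint counts. With the copies added, its log2 fold change was -0.88 and was called (adjusted p = 0.00935).

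The size of the regional difference split by batch. The median over 78 members was -1.65, -0.89 and -1.15 in batches 1 to 3, whose cord libraries were ventral, and -0.23 and -0.21 in batches 4 and 5, whose cord libraries were of the whole cord. Between 76 and 77 of 78 members lay below 0 in each batch. The share of counts on members was 2.80, 1.98 and 2.09 times as high in meninges as in cord in batches 1 to 3 and 1.20 and 1.21 times in batches 4 and 5. In a fit that kept the 4 sets of libraries apart, 77 of 80 members were lower in cord within batches 1 to 3, against 25.5% of all genes, and 0 were higher, against 26%, with a median of -1.24. Within batches 4 and 5, 1 of 80 was lower, against 13.3% of all genes, with a median of -0.25 and 78 of 80 below 0. That member was Rps4l, at 62.6 and 49.9 CPM in whole cord and 100.2 and 102 CPM in meninges of those batches (-0.87 ± 0.14, adjusted p = 0.000716). Rps27 had -2.07 ± 0.19 within batches 1 to 3 (adjusted p = 1.39e-05) and -0.41 ± 0.22 within batches 4 and 5 (0.209), and Rplp1 had -1.48 ± 0.16 and -0.50 ± 0.19, the latter with an adjusted p of 0.0780.

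**Figure D3:**
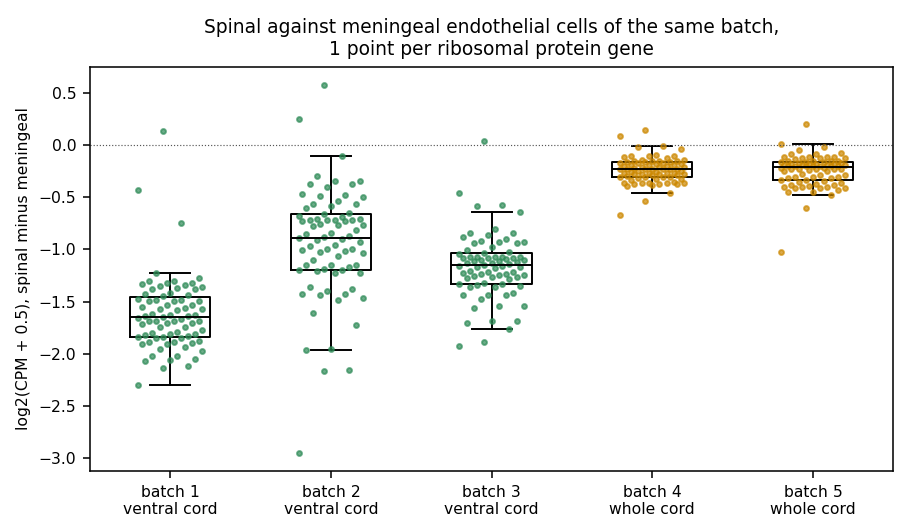
Log2 difference of each of 78 members, cord minus meninges, within each of the 5 batches, with boxes for the quartiles and the median. Batches 1 to 3 have medians of -1.65, -0.89 and -1.15 and batches 4 and 5 medians of -0.23 and -0.21.

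The 2 dissections of the cord were then compared directly, with the same cord libraries as in the regional comparison. Of 80 members tested, 35 were lower in ventral than in whole cord, against 5.56% of all 17901 genes, and 0 were higher, against 5.13% (edgeR). DESeq2 called 61 lower, beside 1718 of all genes, and 0 higher. An unadjusted p under 0.05 was found in 69 members and in 5318 of the 17901 genes. The median was -0.64, with 79 of 80 below 0, and 74 members did not overlap with ventral lower, against 25.7% of all genes. Rps10 was the 1 member with no overlap and ventral higher, against 23.9% of all genes. The count rested on few libraries: without whole cord batch 4 or 5 it was 1 each, without ventral batch 1, 2 or 3 it was 7, 60 and 15, and without meningeal batch 1, 4 or 5, which enter through the shared spread, it was 64, 14 and 19. The number of all genes called lower moved as well, from 995 in the main fit to 440, 1464 and 626 without ventral batch 1, 2 or 3. Without meningeal batch 1 it was 1318. Leaving out whole cord batch 4 or 5 leaves 1 whole cord library. Dissection and batch cannot be told apart in the cord, since each batch had 1 dissection.

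Rpl26, which is also known to bind p53 mRNA, stood furthest out. It had 7.07, 6.61 and 5.26 CPM in ventral and 71.7 and 67.5 CPM in whole cord, a log2 fold change of -3.46 ± 0.23 (adjusted p = 0.000122). For the meninges the labels give no ventral or whole dissection. There Rpl26 had 18.2, 27.1 and 14.2 CPM in batches 1 to 3 and 83.0 and 74.8 CPM in batches 4 and 5 (-2.02 ± 0.22, adjusted p = 0.0100). Both tissues were low in the first 3 batches and high in the last 2. The testis paralog Rpl39l was called lower in ventral cord (-2.65 ± 0.71) on levels of at most 0.718 CPM. It was at 0.230, 0.515 and 0.174 TPM in ventral and 2.04 and 1.32 TPM in whole cord. Rpl39l passed the filter through libraries other than the ventral ones, so its call is no support for a fall. Rpl30 fell from 166 and 176 CPM in whole to 82.8, 105 and 74.8 CPM in ventral cord (-0.96 ± 0.26). Rplp0, Rplp1 and Rplp2 had log2 fold changes of -0.64 ± 0.17, -0.72 ± 0.17 and -0.59 ± 0.15. Each of these calls but that of Rpl26 was lost when ventral batch 1 or 3 or whole cord batch 4 or 5 was left out (adjusted p from 0.0525 to 0.267). The same calls were lost without meningeal batch 4 (0.0557 to 0.0714) and, except for Rplp1, without meningeal batch 5. Those of Rpl39l and Rplp0 were also lost without meningeal batch 3 (0.0519 and 0.0504).

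The same split by batch was made in the meninges, for which the labels give no ventral or whole dissection. It therefore cannot tell batch from dissection. Between batches 1 to 3 and batches 4 and 5, 0 of 80 members were higher, against 0.0112% of all genes, and 1 was lower, Rpl26, against 0.0223% (edgeR). A count of 24 members, and 2352 of the 17901 genes, had an unadjusted p under 0.05. DESeq2 called 12 members higher, beside 88 of all genes, and 1 member lower. The call of Rpl26 was lost without meningeal batch 1, 4 or 5 (adjusted p = 0.0522, 0.140 and 0.168). The median was 0.33, opposite in sign to the cord, with 76 of 80 above 0. With batches 1 to 3 higher, 43 members did not overlap, against 14.3% of all genes. Rpl35 had the highest value, at 305, 468 and 201 against 163 and 157 CPM (0.99 ± 0.28, adjusted p = 0.301).

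The test of the difference itself set the cord change against the meningeal one. Of 80 members, 9 were called lower, against 0.408% of all genes, and 0 higher, against 0.14% (edgeR). The median was -1.02, with 78 of 80 below 0. Of the 9, Rps27 led at -1.66 ± 0.29 (adjusted p = 0.0447), then Rpl41 at -1.51 ± 0.23 and Rps14 at -1.50 ± 0.22. Rpl36, Rpl32, Rps16, Rps15, Rpl19 and Rpl10a followed at -1.45 to -1.15, of which Rpl32, Rps16, Rps15, Rpl19 and Rpl10a are named because they were called. The calls were sensitive: with batch as a block 0 members were called (Rps27 adjusted p = 0.0609), DESeq2 called 60, and RLE scaling (DESeq2-type size factors within edgeR) called 20. Without meningeal batch 2, 4 or 5, ventral batch 1 or whole cord batch 4 or 5 the count was 0, without meningeal batch 1 it was 22 and without ventral batch 2 it was 59.

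Marker levels were read over the same splits. Of all genes, 24.8% were higher and 23% lower in cord against meninges, and 5.13% and 5.56% in ventral against whole cord. Motor neuron markers summed to 545 to 956 CPM in cord and 209 to 441 CPM in meningeal libraries, with 8 of 12 higher in cord, and progenitor markers to 2945 to 3888 against 1949 to 2418 CPM, with 7 of 8 higher. The mesenchyme and cartilage markers summed to 1408 to 2876 CPM in cord and 14618 to 20847 CPM in meninges, and 9 of 11 were lower in cord. Endothelial markers summed to 2037 to 4570 against 1140.0 to 2288 CPM, with 10 of 14 higher in cord, and pericyte markers had 5 higher and 2 lower of 7. In the cord, macrophage markers summed to 1031 to 1548.5 CPM in ventral and 3077 to 3165 CPM in whole cord, with 7 of 9 lower in ventral. Endothelial markers summed to 2037 to 3912 CPM in ventral and 4364 to 4570.2 CPM in whole cord, with 1 of 14 lower in ventral, near the share of all genes. Mesenchyme and cartilage markers summed to 2283 to 2876 against 1408 to 1540.4 CPM, with 6 of 11 higher in ventral. Erythroid markers summed to 4082 to 30746 CPM in ventral and 41906 to 44023 CPM in whole cord, and in meninges to 7076 to 51613 CPM in batches 1 to 3 and 6948 to 10265 CPM in batches 4 and 5. In both of these splits 0 of 9 erythroid markers were called. The part of these cells, of Gm42418 and of mitochondrial RNA in the ribosomal protein difference was not tested.

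The paralogs among the members shared out differently with their parent genes. Rps27l and Rps27 are printed over their first 60 coding bases, with the bases that differ in capitals, because their separation rests on these differences.
Rps27 (chr3:90212667-90213651): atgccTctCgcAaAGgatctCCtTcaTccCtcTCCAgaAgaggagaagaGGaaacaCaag
Rps27l (chr9:66946086-66949514): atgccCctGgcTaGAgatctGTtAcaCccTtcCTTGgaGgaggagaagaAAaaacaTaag
Of these 60 bases 18 differ, and over the 255 coding bases 61 differ, which is 76.1% identity, with no identical run longer than 11 bases. Rps27l took 81.9% and 83.6% of the pair's TPM in the 2 WT endothelial libraries, 77.4% to 80.9% in WT motor neurons and 5.44% to 12.48% in the regional libraries. Rps27 shared 50-base windows with 9 other genes and had 40.3% of its own, while Rps27l had 82.5%. The endothelial median of Rps27 was 23.1 TPM in the knockout series and 2355 TPM in the regional series. Rps4l took 31.8% to 37.4% of the pair with Rps4x in endothelial cells, 43.2% to 49.8% in motor neurons and 8.21% to 13.6% in the regional series. Rpl36al, the autosomal relative of the X-linked Rpl36a, took 22.03% to 30.0% in knockout-series libraries and 0.129% to 0.41% in regional ones. Rpl3l, known from striated muscle, and the testis paralogs Rpl10l and Rpl39l took at most 1.68% of their pairs in any library.

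**Figure D4:**
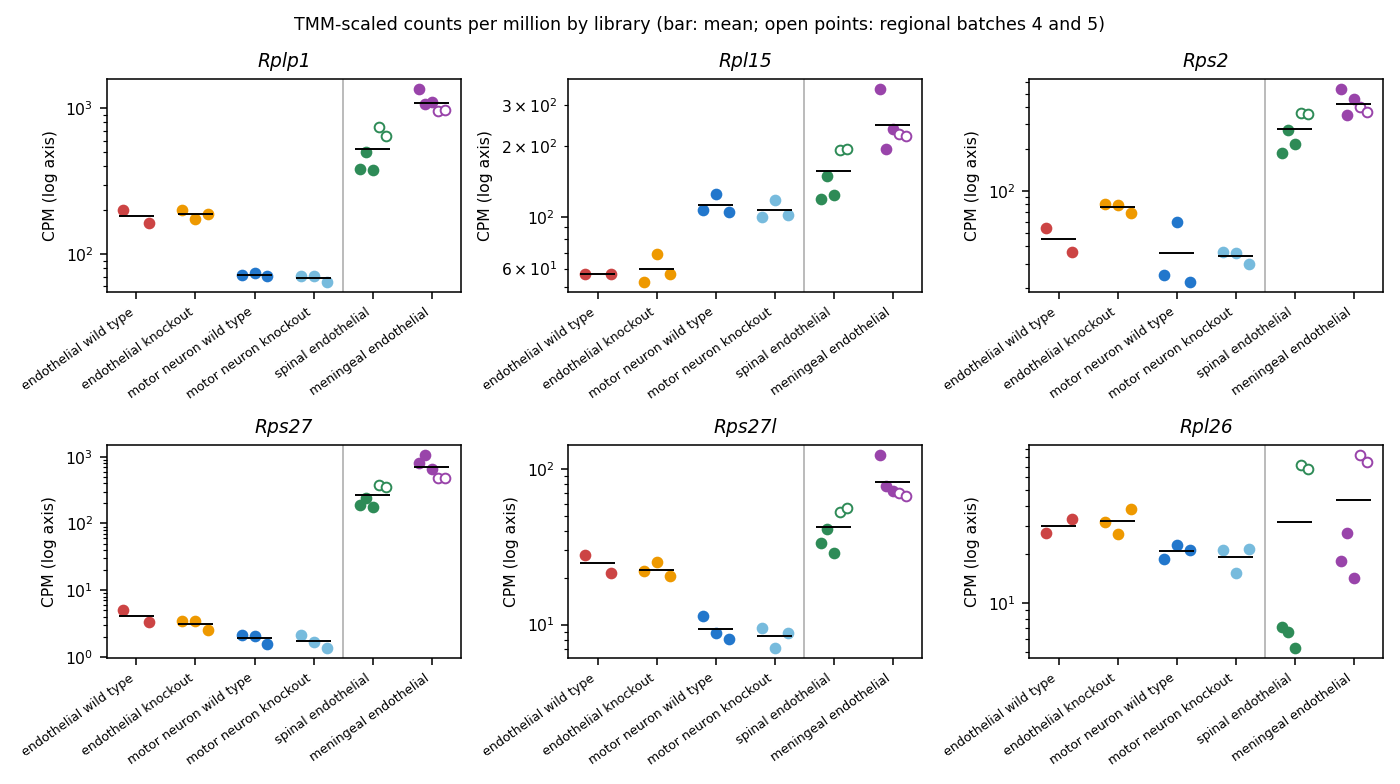
CPM of Rplp1, Rpl15, Rps2, Rps27, Rps27l and Rpl26 (log axes), 1 point per library, with the group mean as a bar and regional batches 4 and 5 as open points. Within the knockout series Rpl15 is the one with motor neurons above endothelial cells. The regional points of Rpl26 split by batch in both tissues, from 5.26 to 27.1 CPM in batches 1 to 3 and from 67.5 to 83.0 CPM in batches 4 and 5.

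Promoter sequences were examined because the members moved together. RefSeq windows of 250 bases before to 50 after a transcript start (GRCm38.p6) were found for 62 members, 74 windows in all, and 22 members had none in the table. A C followed by at least 4 pyrimidines exactly at the listed start, the form of a TOP tract, was present in 14 of 74 windows (18.9%), against 2.51% of all 32851 windows. A run of at least 6 pyrimidines within 20 bases of the start was in 58.1% against 30.5%. The windows below give 40 bases before and 20 from the start, with the pyrimidine tract at the start in capitals. They are of a phosphorylated subunit, the member with the strongest regional difference, another of the strongest and a stalk protein. The members Rps10 and Rpl38, which were not called between cord and meninges, are shown too. Every window shown has a tract at the start, as only 14 of the 62 members with a window did. The windows shown are therefore not typical of the members.
Rps6 (chr4:86857348-86857407, minus strand): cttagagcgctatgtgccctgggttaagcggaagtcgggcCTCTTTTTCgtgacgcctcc
Rps27 (chr3:90213629-90213688, minus strand): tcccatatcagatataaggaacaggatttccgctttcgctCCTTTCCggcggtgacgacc
Rpl35 (chr2:39005112-39005171, minus strand): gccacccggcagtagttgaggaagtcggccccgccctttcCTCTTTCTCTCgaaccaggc
Rplp2 (chr7:141447611-141447670, plus strand): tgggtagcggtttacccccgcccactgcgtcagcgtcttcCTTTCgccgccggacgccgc
Rps10 (chr17:27635225-27635284, minus strand): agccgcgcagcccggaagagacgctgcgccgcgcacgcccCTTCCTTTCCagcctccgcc
Rpl38 (chr11:114668540-114668599, plus strand): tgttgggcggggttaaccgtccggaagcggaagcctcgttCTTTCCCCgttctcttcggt
The tract was 5 bases long in Rplp2 and 11 in Rpl35, and Rps10 and Rpl38 had tracts of 10 and 8 bases. On both strands of the 300-base windows, CGGAAG, the core of ETS-family sites, was in 60.8% of member windows and 16.9% of all windows, and CTTTCC in 50% and 26.6%. TATAAA was in 9.46% and 13.6%, CCAAT in 31.1% and 37.4%, and CACGTG, the E-box of Myc, in 10.8% and 7.15%. A match of letters is a description of the window and no evidence of binding.

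The 6 subunit genes outside the symbol rule were read out in the same comparisons. Between cord and meninges 5 of 6 fell in cord, against 23% of all genes. Among them was Rack1, the signalling scaffold of the small subunit, at 624, 806, 628, 1151 and 1108 against 1758, 1414, 1645, 1326 and 1270.0 CPM (-0.78 ± 0.20, adjusted p = 0.00635). In endothelial cells against motor neurons 4 of 6 rose in each genotype, against 33.8% of all genes in WT and 35.3% in Plxnd1-KO. Rpl22l1, a paralog of Rpl22, rose by 1.36 ± 0.20 and 1.65 ± 0.18. In ventral against whole cord 3 of 6 fell, against 5.56% of all genes. In the knockout comparisons 0 of 6 were called.

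Genes that build or regulate ribosomes were listed for comparison. For these lists the shares of all genes were 33.8% higher and 31% lower in WT endothelial cells against motor neurons, 35.3% and 33.5% in Plxnd1-KO, 24.8% and 23% in cord against meninges, and 5.13% and 5.56% in ventral against whole cord. Of 24 ribosome biogenesis genes, 9 rose and 4 fell in WT endothelial cells against motor neurons, 12 rose and 4 fell in Plxnd1-KO, 1 rose and 10 fell in cord against meninges, and 3 fell in ventral cord. The rises in WT lie near the background. Utp20, a processing factor of the small subunit, rose by 1.23 ± 0.13 in WT, while Rrn3, the initiation factor of RNA polymerase I, had -1.12 ± 0.14. In cord against meninges, Tcof1, a nucleolar factor of ribosomal RNA synthesis, had -0.57 ± 0.10 (adjusted p = 0.000397) and Fbl, the ribosomal RNA methylase, -0.56 ± 0.10 (0.000718). Of 14 tested translation factors with TOP mRNAs, 7 and 11 rose in endothelial cells against motor neurons in WT and Plxnd1-KO, 9 fell in cord against meninges, 3 fell in ventral cord, and none went the other way in these 4 comparisons. Pabpc1, the poly(A) binding protein, rose by 1.33 ± 0.11 in WT, and the chaperone Nap1l1 had 1.48 ± 0.10 there and -1.22 ± 0.16 in cord against meninges.

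The 14 regulators of the mTOR and Myc pathways did not move one way. In endothelial cells against motor neurons 3 rose and 5 fell in WT, and 3 rose and 6 fell in Plxnd1-KO, with the falls in WT near the 31% of all genes. Eif4ebp1, the translation repressor inhibited by mTOR, rose by 3.64 ± 0.28 in WT while Mycn had -1.91 ± 0.21. In cord against meninges 4 rose and 1 fell, with the rises near the 24.8% of all genes. Mycl, a Myc family member, rose by 2.97 ± 0.22 and Eif4ebp1 had -1.27 ± 0.16. In ventral against whole cord 1 of 14 rose, near the 5.13% of all genes. Of the proliferation list, 3 of 15 fell in cord against meninges, which lies near the 23% of all genes. Mcm5 was at -0.80 ± 0.11 and the thymidylate synthase gene Tyms at -0.80 ± 0.12. In ventral against whole cord 0 of 15 were called. In the knockout comparisons 0 genes of any of these 4 lists were called.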

How the data were processed

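Counts per gene were used from 21 of the 22 libraries. The authors deposited raw counts, made with featureCounts 1.6.4 on the GENCODE vM22 basic annotation per the file headers, after Trimmomatic 0.39 and STAR 2.5.3a on GRCm38 (mm10) per the submitters' processing notes. Per the file headers, the knockout series was counted as single reads without strand and the regional series as read pairs on the reverse strand, and reads with several alignments were left out, so levels were not tested between series. Genes that share sequence with copies can lose reads, and unstranded counts can include antisense reads. The file of WT endothelial batch 2 was left out as a repeat of another library. Blank or total rows numbered 0.

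Each comparison was fitted on all genes with the edgeR 4.0.16 quasi-likelihood test in R 4.3.3 (TMM scaling, filterByExpr with a minimum count of 10, two-sided, Benjamini-Hochberg adjusted p of 0.05), and the rows of the members were read out. The knockout was fitted within each cell type, the cell types and the interaction over the 11 libraries of the knockout series, cord against meninges over the 10 regional libraries, and the dissections in a regional fit of 4 sets. TPM used the exonic lengths of the files. Differences within a batch used log2(CPM + 0.5). The edgeR step was tested on simulated data. Uniqueness was the share of 50-base windows of GENCODE M21 basic transcripts found in no transcript of another gene, since the vM22 transcripts were not used here. Total counts ranged from 15685784 to 27035395.

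Libraries were paired by the batch numbers in their titles, which do not say what libraries of the same number share. Deviations from the group means correlated at 0.44 and 0.516 in endothelial pairs, at 0.379, 0.413 and 0.359 in motor neuron pairs and at -0.27, -0.03, 0.30, 0.17 and 0.04 in cord and meningeal pairs. Alternatives were DESeq2 1.42.0, RLE scaling, TMM without the members, no filter, copies summed with the member, batch as a block, each library left out, and, added after seeing the data, fits within batches 1 to 3 and 4 and 5 and shares without Gm42418. Members named are fixed role genes (stalk, Mdm2 binders, mouse mutants, paralogs with their parents), the 5 highest and 5 lowest fold changes per comparison, the 3 highest and 3 lowest median TPM, and the 5 with most named copies. A few values that the rule would name are not reported here. Members and lists were chosen with earlier results of these data known.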

Additional observations from a re-analysis of the deposited data

Results flagged for a closer look

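A single library stood apart in 4 of 48 groups of 5 libraries checked, which were 23 members and the share of counts on members in cord and in meninges, where the gap to the nearest library exceeded Dixon's 95% limit of 0.71 of the range, and chance flags about 1 in 20 groups. All 4 were meningeal batch 1. Rpl12 was at 1146.0 CPM there against 659.8 to 798.1 CPM in the other 4 meningeal libraries, and Rps20 was at 899.6 CPM against 548.8 to 609.2 CPM. Rps4x was at 1020.8 CPM against 626.3 to 686.7 CPM, and Rps27l at 124.0 CPM against 66.8 to 77.7 CPM. The same library had the highest share of counts on members, 4.98%, and the highest mitochondrial share of the 21 libraries, 3.19%.

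For 9 members the difference between ventral and whole cord differed from that between the same batches of the meninges, by the edgeR test of that difference (log2 scale, cord change minus meningeal change). Rps27 had -1.66 (adjusted p = 0.0447), Rpl41 -1.51 (0.038), Rps14 -1.50 (0.038) and Rpl36 -1.45 (0.0294). Rpl32 had -1.37 (0.0459), Rps16 -1.29 (0.0391), Rps15 -1.23 (0.038), Rpl19 -1.16 (0.038) and Rpl10a -1.15 (0.0447). Of these, the cord and meningeal parts were -0.87 and 0.79 in Rps27.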

How the results depend on the processing

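With batch as a replicate block, members lower in the test of cord against meningeal change fell from 9 to 0, 1 member (Rps2) was called higher in Plxnd1-KO endothelial cells, members lower in WT endothelial cells against motor neurons were 1 in place of 2, and Rpl11 there was at -0.012 in place of 0.03. The block changed no other count by over 1.5 times. DESeq2 called 61 members lower in ventral cord, 12 higher in meningeal batches 1 to 3 and 60 lower in the test of the 2 changes, RLE scaling called 20 in the last, and with no filter these counts were 68, 12 and 67. Members lower in WT endothelial cells against motor neurons were 1 under RLE scaling, with no filter and with copies summed. Within batches 4 and 5, members lower in cord were 1 in place of 73, Rpl38 was at 0.16 and Rps10 at -0.29. With copies summed, Rpl5 was at 0.10 in WT endothelial cells against motor neurons, Rps10 at -0.88 in cord against meninges and at -0.68 in ventral against whole cord, and the median TPM over members was 82.1 in WT (79.8 otherwise) and 86.3 in Plxnd1-KO endothelial cells (80.9 otherwise). The mean share of counts on members in Plxnd1-KO motor neurons was 0.417% without mitochondrial genes and Alb, against 0.413%. The cause of these changes was not tested.

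Leaving out each library in turn gave ranges of 1 to 2 members lower in WT endothelial cells against motor neurons, 0 to 1 higher in cord against meninges (Rpl3l, without ventral batch 3 or meningeal batch 1), 1 to 64 lower in ventral cord, 0 to 1 lower in meningeal batches 1 to 3, and 0 to 59 lower in the test of the 2 changes. Rpl3l was too low to be among the 78 members tested in the main fit of cord against meninges. It was at 0.634 to 2.68 TPM in cord and 0.359 to 0.616 TPM in meninges. A gene this low passes the filter through the libraries where it is high, so its call is no support for a difference. Rpl5 ranged from -0.25 to 0.078 in WT and from -0.032 to 0.24 in Plxnd1-KO endothelial cells against motor neurons, Rpl11 from -0.052 to 0.085 in WT, and Rps10 from -0.11 to 0.33 in cord against meninges. Over all alternatives, 290 counts, levels and shares stayed close to their reported value and 46 did not. Of the values of single members and the median fold changes, 1188 kept their direction and side of the threshold, 89 lost their call, 18 gained one, 15 changed sign, and the median of cord against meninges moved within batches 1 to 3 (-1.24) and within batches 4 and 5 (-0.25).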
